A study of Sus scrofa with 16 samples.

Results

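Transport genes of the renal tubule were examined in lists of accessible chromatin regions from pig tissues. They were taken by name, as a list of 10 of 19560 protein-coding genes. From the proximal tubule to the collecting duct, these are LRP2, CUBN, SLC34A1, SLC5A2, SLC22A6 and SLC22A8 (proximal tubule), UMOD and SLC12A1 (thick ascending limb), SLC12A3 (distal convoluted tubule) and AQP2 (collecting duct). Accessibility was measured by ATAC-seq, in which a transposase cuts and tags open DNA, on nuclei from pieces of frozen whole organs. The 16 libraries came from female crossbred domestic pigs without any treatment. Newborn pigs (day 0 in the labels, whereas the methods of the study state an age of a day) gave kidney, heart, lung, skeletal muscle, spleen and liver. Liver was also taken from suckling pigs at 28 days and from adult pigs at 180 days. Each of the 8 groups had 2 libraries. According to the study's methods, the animals of an age were a pair of full-sib Berkshire × Tibetan hybrids, and the same newborn pair gave all newborn organs. Both libraries of a group entered a single consensus list, so no count of a list has a replicate error and no test between groups could be made.

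The nephron filters blood and then recovers what the body needs along a row of epithelial segments. Proximal tubule cells take up filtered protein, glucose and phosphate at their luminal side and draw organic anions and drugs from blood. The thick ascending limb and the distal convoluted tubule recover salt without water, and the collecting duct sets the water content of urine under the control of vasopressin.

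A peak was assigned to a promoter when it overlapped the stretch from 2.2 kb upstream to 500 bp downstream of a RefSeq transcription start site (TSS) of the gene. Peaks that overlapped the gene body with 5 kb on either side were counted as window peaks. A kidney-only peak is a newborn kidney peak that overlapped no peak of the other 7 lists by 1 bp. Every peak carries a −log10 p for each replicate, which measures its enrichment over the local background of that library. It grows with sequencing depth, so values of different lists are not on one scale, and peaks were ranked within their list. The irreproducible discovery rate (IDR) states how poorly the rank of a peak was repeated between both replicates. Its highest value in the kidney list was 0.62.

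The lists held from 57126 peaks in newborn muscle to 141689 in suckling liver, with 133254 in newborn kidney. From 19.2% to 50.4% of the peaks of a list, and 33.9% in kidney, had an IDR of 0.05 or lower. The kidney label was checked on PAX2, CDH16, EMX2, NPHS1 and WT1, and all 5 had a promoter peak in newborn kidney, against 0 to 3 of them in each other list. Genes of other cells were counted in the same way, and 75.1% of all protein-coding genes had a kidney promoter peak. Of endothelial genes 4 of 5 had a kidney promoter peak, of leukocyte genes 1 of 5, of erythroid genes 1 of 4, of adrenal cortex genes 3 of 5 and of liver genes 2 of 6. In spleen all 5 leukocyte and all 4 erythroid genes had one, and the liver lists held 5 or 6 of the 6 liver genes. Apart from the endothelial count, these kidney counts lay below the share of all genes. The part of such cells in the results was not tested. Since whole organs were used, fewer cells of a segment and less signal per cell cannot be told apart.

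The 250 bases upstream of the TSS are shown for the 5 genes with a promoter peak in newborn kidney, as the part of the promoter directly before the TSS. They are given 5′ to 3′ on the strand of the gene, from the Sscrofa11.1 assembly, and CpG dinucleotides are in capitals. LRP2, whose promoter had a peak in every list, holds 24 CpG dinucleotides in this stretch (chr15:75754605-75754854, minus strand). Its peak in muscle lay farther upstream, outside the bases shown. CUBN (chr10:43414693-43414942, minus strand) holds 2, SLC34A1 (chr2:80563381-80563630, minus strand) 5, SLC12A1 (chr1:123571656-123571905, minus strand) 4 and AQP2 (chr5:15863236-15863485, plus strand) 8, and the promoter peaks of these 4 genes were kidney-only. The 5 genes without a kidney promoter peak hold from 3 (SLC5A2) to 14 (SLC22A6), so the number does not separate them from the latter 4.
LRP2: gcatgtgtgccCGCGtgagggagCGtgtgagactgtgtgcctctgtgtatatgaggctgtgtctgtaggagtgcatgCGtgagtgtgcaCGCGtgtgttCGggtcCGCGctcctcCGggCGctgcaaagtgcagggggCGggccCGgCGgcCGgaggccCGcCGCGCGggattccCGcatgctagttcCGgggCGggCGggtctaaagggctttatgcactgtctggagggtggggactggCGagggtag
CUBN: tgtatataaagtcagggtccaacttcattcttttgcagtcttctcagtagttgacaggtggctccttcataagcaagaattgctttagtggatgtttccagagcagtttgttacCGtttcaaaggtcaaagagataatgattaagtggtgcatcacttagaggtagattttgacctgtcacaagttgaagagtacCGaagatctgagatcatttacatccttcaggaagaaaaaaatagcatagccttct
SLC34A1: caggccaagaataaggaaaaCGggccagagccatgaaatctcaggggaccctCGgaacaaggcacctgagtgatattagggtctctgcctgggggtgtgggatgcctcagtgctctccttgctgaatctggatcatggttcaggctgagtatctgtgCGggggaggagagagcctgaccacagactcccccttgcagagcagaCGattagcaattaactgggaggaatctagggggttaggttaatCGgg
SLC12A1: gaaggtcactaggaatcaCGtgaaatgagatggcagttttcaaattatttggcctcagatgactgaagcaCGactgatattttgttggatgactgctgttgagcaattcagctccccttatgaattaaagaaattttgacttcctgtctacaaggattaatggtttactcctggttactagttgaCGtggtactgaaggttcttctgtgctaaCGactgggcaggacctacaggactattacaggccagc
AQP2: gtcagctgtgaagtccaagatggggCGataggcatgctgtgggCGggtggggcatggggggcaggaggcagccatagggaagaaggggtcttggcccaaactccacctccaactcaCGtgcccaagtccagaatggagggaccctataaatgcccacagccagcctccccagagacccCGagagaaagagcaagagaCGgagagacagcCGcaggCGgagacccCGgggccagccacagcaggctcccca

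Over the 300 bases from 250 upstream to 50 downstream of the TSS, the observed to expected CpG ratio was 0.877 in LRP2, which is higher than in 77.0% of all protein-coding genes. The other 9 genes lay between 0.165 in SLC22A8 and 0.457 in SLC22A6, below the median of 0.651 over all genes. Across all genes the ratio went with the number of lists that held a promoter peak. Its median was 0.793 for 11091 genes with a promoter peak in all 8 lists, 0.307 for 911 genes with one in a single list and 0.26 for 3322 genes with none. The ratio of LRP2 was closest to the median of the first class, and those of the other 9 genes were closer to the medians of the latter classes.

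In newborn kidney, 5 of the 10 genes had a promoter peak (LRP2, CUBN, SLC34A1, SLC12A1 and AQP2), whereas 75.1% of all protein-coding genes had one. For 4 of the 10 genes the kidney promoter peak was kidney-only, against 6.22% of all protein-coding genes. LRP2 was the exception, with a promoter peak in all 8 lists. Outside kidney, the sole other promoter peak was that of SLC12A3 in spleen. Thus 1 of the 10 genes had a promoter peak in heart (67.9% of all genes), lung (70.4%), muscle (61.4%), newborn liver (73.5%), suckling liver (74.8%) and adult liver (69.7%), and 2 of the 10 had one in spleen (68.8%). In every list, kidney included, the count lay below the share of all genes, whereas the count of kidney-only promoters lay above it. When every list was limited to an IDR of at most 0.05, 3 genes kept a kidney promoter peak (LRP2, SLC34A1 and SLC12A1, against 56.1% of all genes), and for SLC34A1 and SLC12A1 it was kidney-only (5.63% of all genes). SLC5A2, SLC22A6, SLC22A8 and UMOD had no promoter peak in any list. A missing peak means only that none was called, and absence of accessibility was not measured.

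Window peaks gave a fuller picture than promoters. All 10 genes had at least 1 kidney-only window peak, against 42.5% of all protein-coding genes. With the 57126 strongest peaks of each list, 7 of the 10 kept one, against 23.5% of all genes, and LRP2, SLC12A3 and AQP2 did not. Since long windows hold more peaks, these shares depend on gene length. When the kidney-only peak also had to reach an IDR of 0.05 or lower, 5 of the 10 genes (CUBN, SLC34A1, SLC5A2, UMOD and SLC12A1) kept one, against 12.4% of all genes. The kidney list held more window peaks than any other list for 7 of the 10 genes, against 14.1% of all genes. CUBN had 29 in spleen and 27 in kidney, UMOD 3 in newborn liver and 2 in kidney, and SLC12A3 8 in suckling liver and 6 in kidney.

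**Figure D1:**
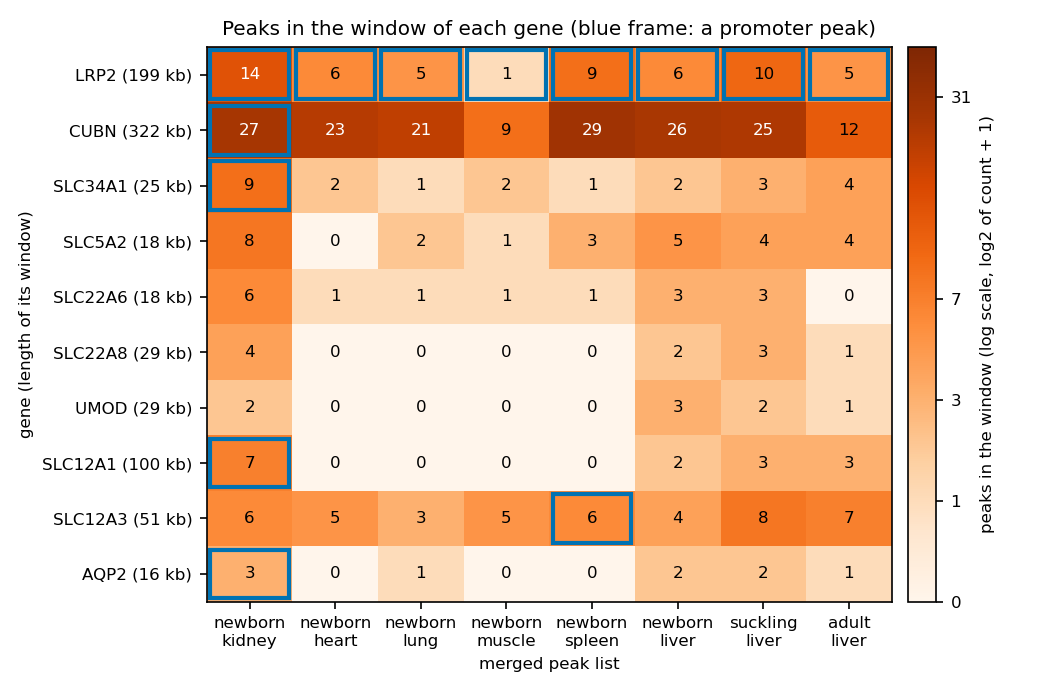
Number of peaks in the window (gene body with 5 kb on either side) of each of the 10 genes, in rows from proximal tubule to collecting duct, for each of the 8 merged lists in columns. Colour follows the log2 of the count plus 1, and a blue frame marks a list with a promoter peak. Frames are seen along the whole LRP2 row, in the kidney column for 4 more genes, and once in spleen for SLC12A3.

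In all, the windows of the 10 genes held 85 kidney peaks, counting once the peak that lies in the windows of both SLC22A6 and SLC22A8. The other lists held 37 (heart), 34 (lung), 19 (muscle), 49 (spleen), 54 (newborn liver), 62 (suckling liver) and 38 (adult liver). LRP2 and CUBN, by far the longest genes, supplied 41 of the 85 kidney peaks. Over the other 8 genes there were 44 peaks in kidney, 8 in heart, 8 in lung, 9 in muscle, 11 in spleen, 22 in newborn liver, 27 in suckling liver and 21 in adult liver. List length differs between tissues, so the counts were repeated at the equal length of 57126 peaks. The 8 genes then had 20 peaks in kidney, 6 in heart, 6 in lung, 9 in muscle, 7 in spleen, 9 in newborn liver, 13 in suckling liver and 13 in adult liver. With peaks of an IDR of 0.05 or lower alone, they had 13 in kidney, 12 in adult liver and 10 in suckling liver, and from 0 to 3 in the other lists. Kidney and the older livers were close, but these lists were again of unequal length. They held 45116 peaks in kidney, 54948 in adult liver and 47826 in suckling liver, against 14523 to 23084 in the others. These counts therefore cannot be told apart from list length. For LRP2 and CUBN the order changed at equal length, with 15 peaks in kidney, 24 in spleen, 22 in heart and 19 in lung.

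LRP2 encodes megalin, the large endocytic receptor that takes up filtered proteins in proximal tubule cells. Its gene (chr15:75565299-75754604, minus strand, 189.3 kb) had 14 kidney window peaks and between 1 (muscle) and 10 (suckling liver) in the other lists. The strongest kidney peak covered chr15:75755404-75756746, with its summit 1.64 kb upstream of the TSS. Its −log10 p was 19.5 in replicate 1 and 25.9 in replicate 2, with an IDR of 0.003, and it overlapped a peak in each of the other 7 lists. A second promoter peak across the TSS (chr15:75753683-75755103) reached 8.64 in replicate 1 and 28.6 in replicate 2. It overlapped a peak in all other lists but muscle, so both promoter peaks were shared widely. The muscle peak was a weak one 1.92 kb upstream, with 5.03 and 7.59 and an IDR of 0.63.

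Beyond the promoter, 8 of the 14 kidney peaks of LRP2 were kidney-only, and all 8 lay in introns between 4.01 kb and 115.84 kb from the TSS. The strongest of them (chr15:75638426-75638946) had a −log10 p of 8.56 in replicate 1 and 7.74 in replicate 2, with an IDR of 0.17. None of the 8 reached an IDR of 0.05. In the smaller replicate value, all 8 lay below both promoter peaks.

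CUBN encodes cubilin, which works with megalin in the uptake of albumin and of the vitamin B12 carrier complex. Its gene (chr10:43102931-43414692, minus strand, 311.8 kb) had 27 kidney peaks, and from 9 (muscle) to 29 (spleen) in the other lists. Despite so many shared peaks in the gene body, the promoter of CUBN had a peak in kidney alone. The promoter peak at the TSS (chr10:43414580-43415159) had a −log10 p of 7.06 in replicate 1 and 12.9 in replicate 2. A second one, with its summit 1.24 kb upstream (chr10:43415793-43416138), had 8.72 and 27.5. Replicate 2 was higher in both, and their IDRs of 0.21 and 0.23 were above 0.05.

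The most repeatable kidney-only peak of CUBN lay in an intron 13.71 kb downstream of the TSS (chr10:43400735-43401403). It reached a −log10 p of 23.9 in replicate 1 and 49.4 in replicate 2 with an IDR of 0.0013, within the strongest 11.3% of the kidney list. The strongest peak of the gene overall (chr10:43297874-43298915, intron) reached 35.8 and 39.7 and was shared by all 8 lists. Of the 27 kidney peaks 8 were kidney-only, the lowest share among the 10 genes (29.6%, Wilson 95% interval 15.9% to 48.5%). The 300 bases at the summit of the intron peak (chr10:43400829-43401128, minus strand) are shown because it was the strongest distal kidney-only peak of the 2 endocytic receptors. Its only match among the searched motifs was the CREB letters TGACGTCA, in capitals.
CUBN intron: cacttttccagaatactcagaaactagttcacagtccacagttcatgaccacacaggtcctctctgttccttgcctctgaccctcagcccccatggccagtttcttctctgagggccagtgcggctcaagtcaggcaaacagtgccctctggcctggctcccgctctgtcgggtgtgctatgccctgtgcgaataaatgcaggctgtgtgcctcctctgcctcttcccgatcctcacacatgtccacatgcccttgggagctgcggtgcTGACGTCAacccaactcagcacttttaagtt

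**Figure D2:**
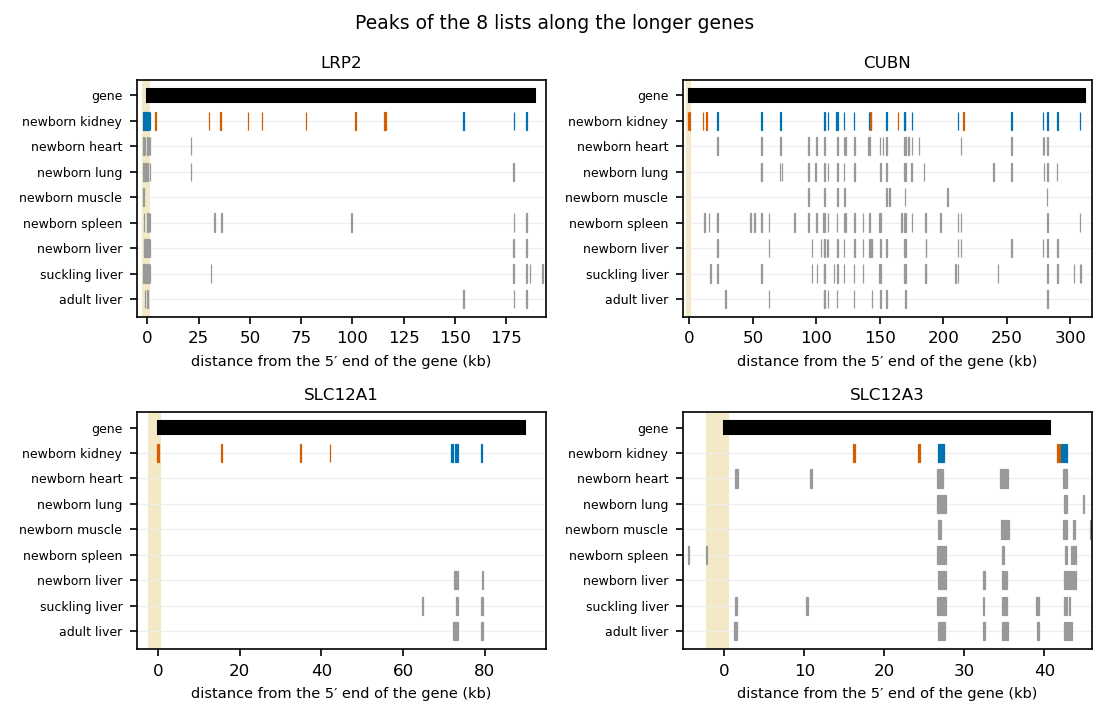
Peaks of the 8 lists along LRP2, CUBN, SLC12A1 and SLC12A3, by distance from the 5′ end of the gene in kb (black bar, gene body; shaded, promoter of that end). Kidney peaks are orange where kidney-only and blue where shared, and peaks of the other lists are grey. Many peaks of CUBN stand in columns through several lists, whereas the 5′ part of SLC12A1 has peaks in kidney alone.

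SLC34A1 encodes the sodium-phosphate cotransporter NaPi-IIa, the main route of phosphate recovery in the proximal tubule. Its gene (chr2:80548208-80563380, minus strand) is 15.2 kb long. The window held 9 kidney peaks and 1 to 4 in each other list. The promoter peak (chr2:80563201-80563960), centred 0.03 kb upstream of a TSS, had a −log10 p of 23.3 in replicate 1 and 16.8 in replicate 2. With an IDR of 0.019 and a place within the strongest 18.1% of kidney peaks, it was kidney-only and the strongest kidney-only peak of the gene. A still stronger peak 2.99 kb upstream (chr2:80566259-80566764) reached 23.6 and 38.9, with an IDR of 0.0014. That one overlapped peaks of newborn, suckling and adult liver and of no other list. In liver its −log10 p was 88.4 and 42.0 at birth, 29.5 and 45.0 at 28 days and 48.6 and 62.5 at 180 days. It ranked within the strongest 11.5% of the kidney list, and within 7.09%, 9.57% and 25.9% of these liver lists. The 3 remaining kidney-only peaks of SLC34A1 lay in introns and had an IDR between 0.055 and 0.62. Peaks past its 3′ end also overlapped the gene bodies of F12, the blood clotting factor XII, and of PFN3, a profilin.

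SLC5A2 encodes SGLT2, which recovers most of the filtered glucose. Its gene (chr3:17081138-17089422, minus strand) is 8.3 kb long. Although no list had a peak at its promoter, SLC5A2 had 8 kidney window peaks, 4 of them kidney-only, and the highest kidney peak density of the 10 genes at 4.38 peaks per 10 kb of window. Of all protein-coding genes, 99.8% had a lower density. In the gene body alone it had 3 kidney peaks, or 3.62 per 10 kb, and 93.6% of genes lay lower. The strongest kidney-only peak of all 10 genes lay 1.41 kb downstream of its nearest TSS, overlapping an exon (chr3:17087431-17087845). Its replicates gave a −log10 p of 24.5 and 28.6, and its IDR was 0.0022. An intron peak close to it (chr3:17086932-17087192) reached 10.9 and 19.6 with an IDR of 0.017. Another one past the 3′ end (chr3:17078524-17078895) reached 11.0 and 11.9 with an IDR of 0.031, inside the neighbouring gene C3H16orf58. SLC5A2 thus had 3 kidney-only peaks with an IDR of 0.05 or lower, more than any other of the 10 genes. Upstream, 3 kidney peaks fell on TGFB1I1, a focal adhesion gene, and were shared with 5 or 6 other lists.

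The 300 bases at the summit of the strongest SLC5A2 peak (chr3:17087433-17087732, minus strand) are shown first and hold none of the searched motifs. Those of the intron peak (chr3:17086901-17087200, minus strand) are shown for a match to the ERR letters on the opposite strand, in capitals.
SLC5A2 exon: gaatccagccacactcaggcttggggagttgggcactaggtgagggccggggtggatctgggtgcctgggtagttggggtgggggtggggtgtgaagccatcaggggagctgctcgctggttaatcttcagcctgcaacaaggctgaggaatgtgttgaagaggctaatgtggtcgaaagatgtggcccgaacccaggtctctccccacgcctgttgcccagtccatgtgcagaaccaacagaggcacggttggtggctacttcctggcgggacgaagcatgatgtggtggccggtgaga
SLC5A2 intron: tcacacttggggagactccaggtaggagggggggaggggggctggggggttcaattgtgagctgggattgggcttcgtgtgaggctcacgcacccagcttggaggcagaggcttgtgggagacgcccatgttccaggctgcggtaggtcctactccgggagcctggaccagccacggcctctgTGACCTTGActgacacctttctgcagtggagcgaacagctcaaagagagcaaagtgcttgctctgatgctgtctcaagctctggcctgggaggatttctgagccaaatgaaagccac

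SLC22A6 and SLC22A8 encode the organic anion transporters OAT1 and OAT3, which move anions and many drugs from blood into proximal tubule cells. They are neighbours on chromosome 2, with 8.5 kb between them, and neither had a promoter peak in any list. SLC22A6 (chr2:8809547-8817124, plus strand) had 6 kidney window peaks and up to 3 in each other list. Its strongest kidney peak (chr2:8817131-8817963), just past the 3′ end, had a −log10 p of 19.0 in replicate 1 and 19.1 in replicate 2 and was shared with all 5 other newborn lists. Its 2 kidney-only peaks were less repeatable. One past the 3′ end (chr2:8818118-8818859) had 4.62 and 23.0 with an IDR of 0.44, and one over an exon (chr2:8816380-8816662) had 5.08 and 3.22 with an IDR of 0.62.

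SLC22A8 (chr2:8782030-8800998, plus strand) had 4 window peaks in kidney, none in heart, lung, muscle and spleen, and 1 to 3 in the liver lists. A kidney-only intron peak 3.71 kb downstream of the nearest TSS (chr2:8786176-8787141) showed the widest gap between replicates, with a −log10 p of 11.1 in replicate 1 and 61.5 in replicate 2. Its IDR was 0.25. The other kidney-only peak, over an exon (chr2:8793842-8794275), had 10.3 and 27.2 with an IDR of 0.052, just above 0.05. Between both genes, a kidney peak (chr2:8805925-8806226) with 8.65 and 27.4 overlapped peaks of newborn and suckling liver alone. A further one 2.94 kb upstream of SLC22A8 (chr2:8778644-8779211), on the noncoding gene LOC110259245, had 5.21 and 17.0 and overlapped peaks of all 3 liver lists and of no other list.

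UMOD encodes uromodulin, the most abundant protein of normal urine and a product of the thick ascending limb. Its gene (chr3:25473048-25492286, plus strand) is 19.2 kb long and had 2 kidney peaks, none in heart, lung, muscle and spleen, and 1 to 3 in the liver lists. The kidney-only peak (chr3:25470095-25470712) had a −log10 p of 14.8 in replicate 1 and 12.3 in replicate 2 with an IDR of 0.044. Its summit lay 2.74 kb upstream of the TSS, so it fell just outside the promoter as defined here. The other kidney peak (chr3:25477119-25477629) was weak, with 5.21 and 4.62, and overlapped a peak of suckling liver. Liver peaks downstream of UMOD lay close to the start of the neighbouring gene GP2, which encodes a related glycoprotein. The 300 bases at the summit of the upstream peak (chr3:25470158-25470457, plus strand) are shown because it was the only kidney-only peak of UMOD, and a TFAP2 match is in capitals.
UMOD upstream: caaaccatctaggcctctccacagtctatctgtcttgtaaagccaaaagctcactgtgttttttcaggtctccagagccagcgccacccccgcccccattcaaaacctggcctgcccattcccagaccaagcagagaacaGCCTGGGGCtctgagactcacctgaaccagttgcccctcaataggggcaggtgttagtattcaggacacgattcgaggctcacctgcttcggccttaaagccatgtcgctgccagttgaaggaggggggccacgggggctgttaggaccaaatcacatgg

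SLC12A1 encodes NKCC2, the furosemide-sensitive cotransporter of sodium, potassium and chloride in the thick ascending limb. Its gene (chr1:123481892-123571655, minus strand, 89.8 kb) had 7 window peaks in kidney, none in heart, lung, muscle and spleen, and 2 or 3 in each liver list. The promoter peak (chr1:123571496-123571843) was kidney-only and lay 0.01 kb upstream of the TSS. It had a −log10 p of 17.4 in replicate 1 and 19.9 in replicate 2 with an IDR of 0.0058, the lowest IDR among the promoter peaks of the 4 genes with a kidney-only one. The annotated span of CTXN2 also covers it. In an intron 34.82 kb downstream, a second kidney-only peak (chr1:123536615-123537019) had 11.2 and 11.3 with an IDR of 0.042. The 3 shared peaks lay between 71.78 and 79.15 kb downstream of the TSS and overlapped liver peaks alone. Of the 6 intron peaks, 5 also lay on the noncoding gene LOC102161909 of the opposite strand.

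SLC12A3 encodes the thiazide-sensitive sodium-chloride cotransporter of the distal convoluted tubule. Its gene (chr6:18844752-18885497, plus strand, 40.7 kb) had similar numbers in all lists, with 6 kidney peaks and 3 to 8 in each other list. No promoter peak was called in kidney. The spleen promoter peak (chr6:18842419-18842587) was weak, with 5.48 and 3.11 in its replicates, and lay at the far upstream edge of the promoter. The strongest kidney peak (chr6:18871476-18872175, intron) had a −log10 p of 11.6 in replicate 1 and 23.4 in replicate 2 and was shared by all 8 lists. Its 3 kidney-only peaks ranged from 3.94 to 5.94 in −log10 p and all had the highest IDR of the list, 0.62. Of 15 regions in the window, 10 had peaks in other lists alone, among them a peak over an exon 34.91 kb from the TSS in adult liver (chr6:18879413-18880146) with 237 and 164. This one was within the strongest 6.83% of the adult liver list, and the strongest kidney peak within 28.0% of the kidney list.

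AQP2 encodes the water channel that vasopressin moves to the luminal membrane of collecting duct cells. Its gene (chr5:15862739-15868565, plus strand) is only 5.8 kb long, with a pair of annotated start sites. The window held 3 kidney peaks, 2 of them at promoters and kidney-only. The one at the downstream start site (chr5:15863149-15863720) had a −log10 p of 4.92 in replicate 1 and 5.70 in replicate 2, and the one at the upstream start site (chr5:15862420-15862622) had 3.89 and 2.95. Both had an IDR of 0.62, and the latter was weaker than most of the list, with 99.6% of kidney peaks at its value or above. The remaining kidney peak (chr5:15868383-15868986), over the last exon, was the strongest at 8.59 and 7.70 and was shared with lung and suckling liver. AQP2 had no window peak in heart, muscle and spleen, and 1 or 2 in lung and each liver list. Its kidney-only promoter call therefore rests on peaks of low reproducibility, unlike those of SLC34A1 and SLC12A1. At equal list length AQP2 had no kidney peak at all.

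**Figure D3:**
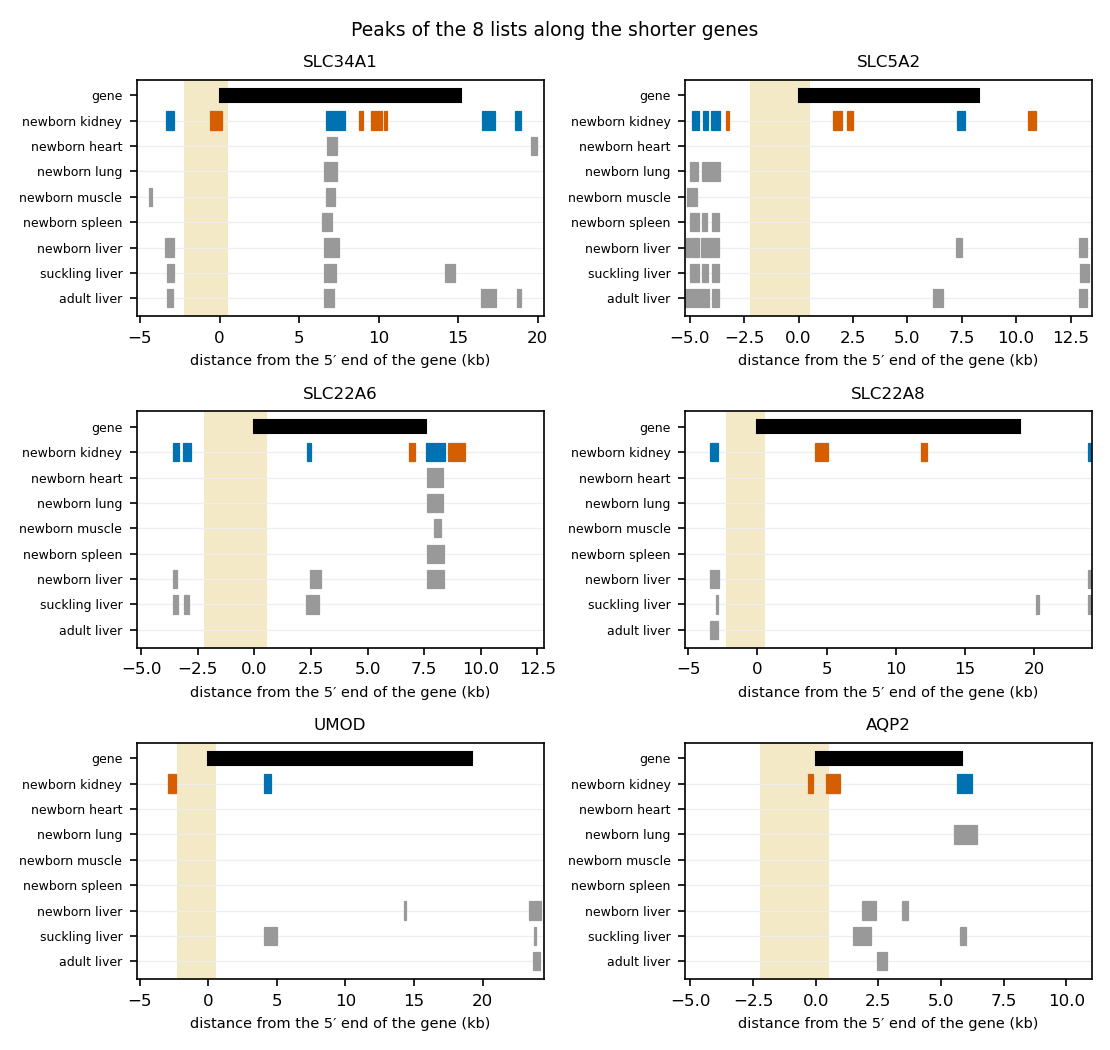
Peaks of the 8 lists along SLC34A1, SLC5A2, SLC22A6, SLC22A8, UMOD and AQP2, by distance from the 5′ end of the gene in kb (black bar, gene body; shaded, promoter of the 5′-most TSS). Kidney peaks are orange where kidney-only and blue where shared, and peaks of the other lists are grey. Orange peaks stand at the start of SLC34A1 and AQP2, within SLC5A2 and SLC22A8, and just left of the shaded promoter of UMOD.

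Values of both kidney replicates are compared across genes in the plot of −log10 p. Replicate 2 was higher in 59 of the 85 peaks (69.4%), close to its share of 68.1% over the whole kidney list. The median −log10 p of the 85 peaks was 7.16 in replicate 1 and 10.4 in replicate 2, against 8.10 and 9.78 for all kidney peaks. Kidney-only peaks were weaker than shared ones, with medians of 5.99 and 6.65 against 8.59 and 11.2. The same order held over the whole list, where kidney-only peaks had medians of 6.29 and 6.94 and shared peaks 9.47 and 12.1. Of the 38 kidney-only peaks in the windows, 20 had the highest IDR of the list and 8 had an IDR of 0.05 or lower (21.1%, 11.1% to 36.3%). Over all kidney-only peaks the latter share was 14.9%.

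**Figure D4:**
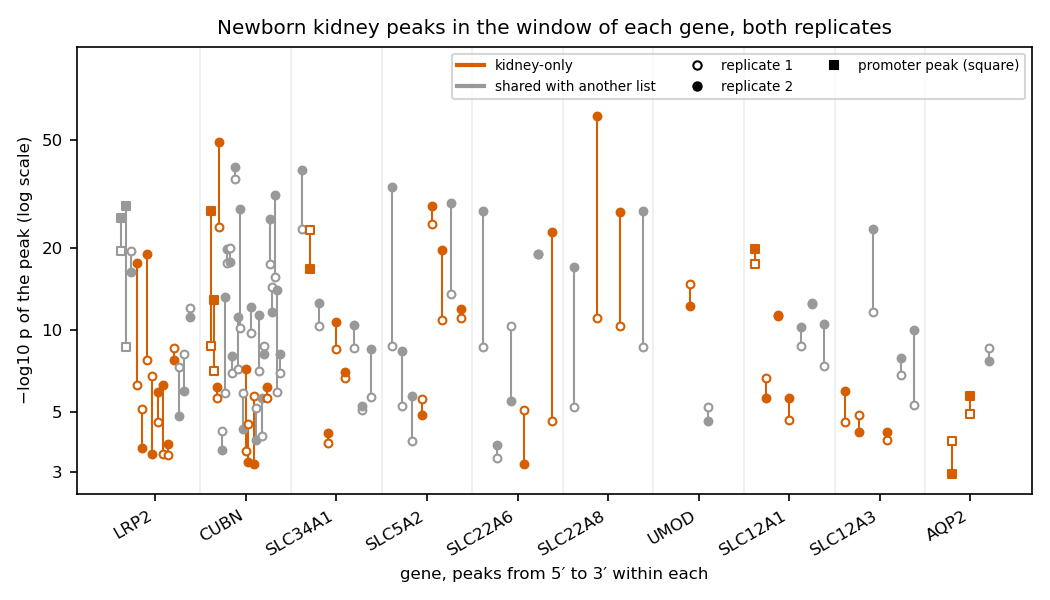
−log10 p (log axis) of every newborn kidney peak in the windows of the 10 genes, with replicate 1 as an open and replicate 2 as a filled symbol joined by a line. Orange marks kidney-only and grey shared peaks, and squares mark promoter peaks. The promoter peaks of SLC34A1 and SLC12A1 lie between 16.8 and 23.3, whereas both of AQP2 lie at 5.70 or lower.

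Of the 85 kidney peaks in the windows, 38 were kidney-only (44.7%, Wilson 95% interval 34.6% to 55.3%, which covers counting error only). The share was 25.4% for kidney peaks in the windows of all protein-coding genes and 28.9% for the whole kidney list. Without LRP2 and CUBN it was 22 of 44 (50.0%, 35.8% to 64.2%). By segment it was 28 of 67 in the proximal tubule genes (41.8%, 30.7% to 53.7%), 5 of 9 in those of the thick ascending limb (55.6%, 26.7% to 81.1%), 3 of 6 in SLC12A3 (50.0%, 18.8% to 81.2%) and 2 of 3 in AQP2 (66.7%, 20.8% to 93.9%). These intervals overlap, and no order of the segments can be read from them. Peaks held by all 8 lists were 8 of the 85 (9.41%, 4.85% to 17.5%), against 18.5% in the windows of all genes. Introns held 23 of the 38 kidney-only peaks, promoters 6, exons 4, and the flanks downstream and upstream 3 and 2. Of the 32 outside promoters, 17 had their summit within 20 kb of the nearest TSS of the gene.

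Sharing with liver was examined because the liver lists held peaks in most of the windows. Kidney peaks that overlapped peaks of liver lists alone were found in the windows of 7 of the 10 genes (all but CUBN, SLC12A3 and AQP2), against 37.4% of all protein-coding genes. They made up 14 of the 85 kidney peaks (16.5%, 10.1% to 25.8%), near the 15.5% in the windows of all genes. With overlapping peaks of all lists joined, the windows held 148 regions. Of these, 38 had a peak in kidney alone, 12 in kidney and liver lists alone, 29 in kidney and further lists, and 69 in other lists alone. Among the regions without a kidney peak, 39 lay in CUBN and 10 in SLC12A3.

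**Figure D5:**
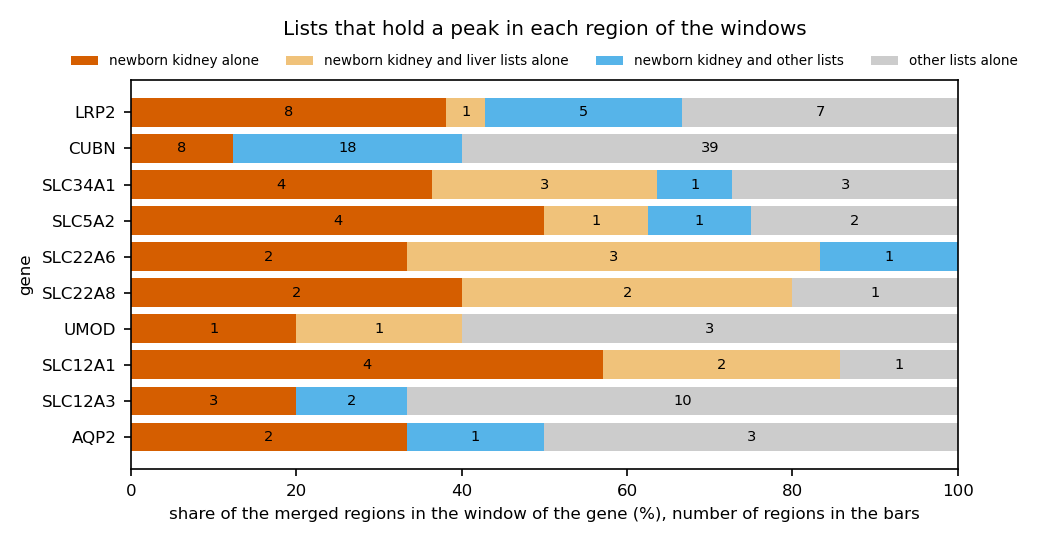
Share of the merged regions (%) in the window of each gene that had a peak in newborn kidney alone, in kidney and liver lists alone, in kidney and other lists, or in other lists alone, with the number of regions printed in the bars. SLC12A1 and SLC5A2 have the largest kidney-alone shares, with 4 of 7 and 4 of 8 regions, and CUBN the smallest with 8 of 65.

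Per 10 kb of window, the 10 genes had a median of 1.28 kidney peaks, against 0.846 for all protein-coding genes, and a median of 0.641 kidney-only peaks, against 0.00. SLC5A2 (4.38), SLC34A1 (3.58) and SLC22A6 (3.41) were denser than 99.2% to 99.8% of all genes, whereas UMOD (0.68), LRP2 (0.70), SLC12A1 (0.70) and CUBN (0.84) lay below the median of all genes. The first 3 depend on the flanks, some of whose peaks lie on neighbouring genes. In the gene body alone SLC5A2 had 3 kidney peaks, SLC34A1 5 and SLC22A6 2, and 93.6%, 92.2% and 88.6% of all genes were less dense. Windows under 30 kb tend to be denser in general, with a median of 1.03 over all genes against 0.713 for longer ones. The 6 genes with such short windows had a median of 2.65, and the 4 with longer windows 0.771.

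Motif letters were searched on both strands in the 300 bases at the TSS and at the summits of kidney peaks. They were HNF1 (GTTAATNAT), HNF4A (CAAAGTCCA), ERR (TCAAGGTCA), a motif of GATA factors (AGATAAG), TFAP2 (GCCNNNGGC), GRHL (AACCGGTT) and CREB (TGACGTCA). In the 300 bases at the TSS, only TFAP2 was found, in LRP2 at 2 places and in SLC12A3 and AQP2 at 1 each. Of 45998 such windows of all genes, 27.2% hold it. At the summits of the 38 kidney-only peaks, TFAP2 was found in 5 (13.2%), against 14.9% of all kidney-only peaks, and AQP2, UMOD, SLC12A1 and SLC22A6 were the genes concerned. HNF4A letters were found in 1, the CUBN promoter peak, against 1.02% of all kidney-only peaks. They start 46 bp downstream of the TSS and run past the end of the 300 bases searched there. ERR letters were found in 1, the SLC5A2 intron peak, against 0.719%. CREB letters were found in 1, the CUBN intron peak, against 0.228%. HNF1 letters were in none of the 38, against 2.76% of all kidney-only peaks, and GATA and GRHL letters were in none either. A match describes letters in a window and not a bound site, and a missing match says nothing on the factor.

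Further tubule genes were counted by the same promoter rule, with 34 of 37 listed genes found in the annotation. The lists also hold regulatory genes, such as the kinases WNK1 and WNK4, the receptors CASR and AVPR2 and the transcription factor FOXI1. A kidney promoter peak was found for 29 of the 34 genes, against 5 of the 10 above, and a kidney-only one for 7. This is therefore not a comparison of transporters alone. Over all protein-coding genes the shares were 75.1% and 6.22%, and the segment counts that follow rest on 6 to 10 genes each. Of 10 further proximal tubule genes 9 had a kidney promoter peak and 3 a kidney-only one. The 3 were SLC4A4, the basolateral sodium-bicarbonate cotransporter (−log10 p of 46.0 in replicate 1 and 62.1 in replicate 2), SLC22A2, the organic cation transporter OCT2 (11.9 and 22.5), and SLC9A3, the sodium-proton exchanger NHE3 (8.61 and 8.05). All 6 genes of the thick ascending limb had a kidney promoter peak. It was kidney-only for CLDN19, a tight junction protein (15.0 and 12.6). In the distal convoluted tubule 7 of 8 genes had a kidney promoter peak, and TRPV5, an apical calcium channel, had a kidney-only one (32.4 and 23.5). In the collecting duct 7 of 10 genes had one, with kidney-only peaks in SCNN1A, a subunit of the epithelial sodium channel (7.69 and 6.16), and AQP4, a basolateral water channel (5.01 and 3.36). This count was not particular to kidney, with 8 of the 10 in newborn liver and 7 each in lung, suckling liver and adult liver. In heart and muscle it was 3 and in spleen 4. Over all 34 genes the other lists had fewer than kidney, from 9 in muscle to 23 in newborn liver. A kidney-only peak here does not mean a promoter closed elsewhere. SLC4A4 had a promoter peak in all 8 lists, SCNN1A and AQP4 in 7, SLC9A3 in 3, and SLC22A2 and CLDN19 in 2. Of the 7 genes only TRPV5 had one in kidney alone, as CUBN, SLC34A1, SLC12A1 and AQP2 did. As for AQP2, the kidney-only promoter peaks of both collecting duct genes had high IDRs, of 0.32 and 0.62.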

How the data were processed

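ATAC-seq peaks of 8 groups of pig tissue were used, and groups were taken from the labels. According to the study's methods, reads were mapped by the authors with Bowtie2 to Sscrofa11.1 and cleaned of mitochondrial, poorly mapped and duplicate alignments with SAMtools (version 1.3.1), and MACS2 then called the peaks of every library. The same methods state that replicates were matched with the IDR tool at its default settings. The peak-calling options named there combine a shift and extension of reads with an input format for whole fragments, so summits may not mark insertion sites. For every peak, the deposited lists hold a −log10 p per replicate together with the lower of these values. In the deposited lists the score is the scaled IDR, in which 540 or more stands for an IDR of 0.05 or lower. The signal value and q-value columns hold a constant and were not used.

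Read counts are not part of the lists. The study states the reads of each library, which differ between tissues, but these were not used here, and no limit of detection was computed. Positions are counted from 1. Genes were RefSeq protein-coding genes of chromosomes 1 to 18, X and Y with coding transcripts (45998 promoters). Peaks on unplaced scaffolds (1.25% to 1.70% of a list) were not assigned. Overlap meant 1 bp or more. Python (3.11.15) with pandas (2.3.3) and scipy (1.17.1) was used, and the counting was tested on simulated lists with planted peaks. No test between groups was made, since each group is 1 merged list. Wilson intervals cover counting error only, and p-values of peaks measure single libraries.

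The members and gene lists were chosen with earlier results of these data known. For each member, every kidney promoter peak and the strongest window and kidney-only peaks by the smaller −log10 p were named, with neighbouring genes on named peaks. Further peaks were named after their values were seen. From each other gene list up to 4 genes with the strongest kidney-only promoter peak were named. AMN, SLC34A3, SLC47A1, PAX8 and CYP11B1 were not found by symbol and were not analysed here. A few other listed genes are not reported here, for a reason unrelated to their values, and are in no count of the lists. Alternatives covered the IDR, list length, the peak bounds of each replicate, promoter, TSS, flank, overlap and lists compared.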

Additional observations from a re-analysis of the deposited data

How the results depend on the processing

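When every list was limited to an IDR of at most 0.05, 3 genes had a kidney promoter peak and 2 a kidney-only one, the windows held 22 kidney peaks, of which 14 were kidney-only, and the kidney-only share was 63.6% (30.4% over the windows of all genes). With the 57126 strongest peaks of each list, the windows held 35 kidney peaks, of which 15 were kidney-only, and AQP2 lost all its kidney peaks, its promoter call included. In both cases fewer peaks were available, in kidney and in the lists it was compared with. Of 42 recomputed main values, the other 35 stayed within 1.5 times the reported count, or for the share within its interval. With the peak bounds of replicate 2 alone or replicate 1 alone, the kidney-only peaks were 39 and 40 and their share 45.9% and 47.1%. The other main counts were as reported. Every consensus peak, matched between both replicates, was kept, so these settings cannot show whether a result rests on a single library. Of 102 recomputed counts for single genes or lists, 61 stayed within 1.5 times. The spleen promoter call of SLC12A3 was lost with the peak bounds of replicate 2, which did not reach the promoter. It was also lost under the IDR limit, with equal list lengths, and with a promoter of 1 kb upstream and 100 bp downstream. The LRP2 promoter peak was lost in muscle with that promoter, in adult liver at equal list length, and in all lists but kidney and suckling liver under the IDR limit.

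No paired analysis was possible because each group is 1 merged list and no test between groups was made. Depth limits these lists, since weak peaks depend on it and their absence was not measured. AQP2 and SLC12A3 rest on weak kidney-only peaks.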

Other observations

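Genes of transcription factors that act in the tubule were counted by the same promoter rule. Of 14 found in the annotation, 13 had a promoter peak in newborn kidney and 7 a kidney-only one, against 75.1% and 6.22% of all protein-coding genes. The strongest kidney-only promoter peaks were those of ESRRB, an estrogen-related receptor (−log10 p of 24.3 in replicate 1 and 30.8 in replicate 2), TFAP2A, an AP-2 factor (12.1 and 12.6), PAX2, a paired-box factor of kidney development (11.5 and 33.1), and LHX1, a LIM-homeobox factor of the early nephron (8.61 and 19.0). All 4 had an IDR of 0.10 or lower. PAX2 and LHX1 had a promoter peak in kidney alone, whereas ESRRB had one in 5 lists and TFAP2A in 6. A kidney-only peak again does not mean a promoter closed elsewhere. IRX1 was the gene without a kidney promoter peak.

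Among markers of other cells, kidney-only promoter peaks were found for STAR, the cholesterol carrier of steroid-producing cells (9.31 and 4.07, IDR 0.62), and for APOB, the apolipoprotein of liver and gut (16.8 and 16.5, IDR 0.011). STAR had a promoter peak in 3 lists in all and APOB in 5. No endothelial, leukocyte or erythroid gene had a kidney-only promoter peak. The podocyte gene NPHS1, which encodes nephrin, had one (9.05 and 7.14, IDR 0.28).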
